A study of Mus musculus with 6 samples.

Results

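The miRNA array used here carries 93 probes whose names mark them as mismatched copies of 15 human miRNA probes, and they are the subject of this account. They were taken as every row of the deposited table with MM in its name, 93 of 2990 rows. The name before MM gives the target and the digit after it was read as the number of replaced bases. By that reading, 35 probes carry 1 replaced base (class 1) and 57 carry 2 (class 2). The name hsa-miR-155*MM/TT/CC has no digit and was kept apart as 1 unclassed probe. A name such as miR-21MM1G/A was read as G replaced by A, and miR-21MM2GA/AC as the pair GA replaced by AC. In 58 of the 58 probes whose names give a pair, both bases of the pair are replaced. The labels do not define these names, and the position of the replaced base in the probe is not given in the sources used here.

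The arrays measured miRNAs in bone marrow cells that lack lineage markers and carry cKit (Lin-cKit+), a fraction that holds hematopoietic stem and progenitor cells. All 6 mice were 10-week-old C57BL/6 females with floxed Raptor alleles (genotype Rprtf/f in the labels), and all were given 400 µg of pIpC, an interferon inducer, in 7 injections. The cKO group (n = 3) carried Mx1-Cre and the Ctrl group (n = 3) were littermates without it, and cells were collected 10 days after the last injection. The Mx1 promoter answers to interferon and is not limited to blood progenitors, pIpC reached both groups, and the loss of Raptor was not measured on these arrays.

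A miRNA is a short RNA that guides repression of messenger RNAs through pairing at its seed. Related miRNAs can differ by a base or so, and an array reads them by hybridisation, the pairing of labelled material to a fixed probe. A mismatched probe differs from its perfect match at named bases, and replaced bases in the middle of a short duplex are generally the most destabilising. Its signal as a share of the perfect match's signal is a measure of how far a probe set tells near-identical sequences apart. The targets include miRNAs with known roles in blood: miR-155 and miR-181a in lymphoid cells, miR-221 and miR-222, which share a seed and repress Kit, and miR-17 and miR-21, which promote growth and survival.

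The mature mouse sequences of the targets are shown because they carry the base pair that each name says was replaced. They are RefSeq sequences on build GRCm38.p6, printed 5′ to 3′, with capitals at every place where the named pair occurs (U in the RNA for T in the name).
mmu-miR-17-5p: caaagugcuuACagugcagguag
mmu-miR-181a-5p: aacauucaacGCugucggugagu
mmu-miR-16-5p: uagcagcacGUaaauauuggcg
mmu-miR-21a-5p: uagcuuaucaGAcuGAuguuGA
mmu-miR-221-3p: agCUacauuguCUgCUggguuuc
mmu-miR-222-3p: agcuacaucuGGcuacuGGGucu
mmu-miR-34a-5p: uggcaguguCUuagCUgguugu
mmu-miR-210-3p: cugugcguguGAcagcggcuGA
mmu-miR-181a-1-3p: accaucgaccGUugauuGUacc
mmu-miR-155-5p: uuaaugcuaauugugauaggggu
A sequence was found for 14 of the 15 targets. In 13 of those 14 the named pair starts at base 10, 11 or 12 from the 5′ end, in the middle of the miRNA. In 4 of them, the miR-17, miR-181a and miR-16 sequences above and that of miR-21*, it occurs nowhere else. Among 1674 distinct mature mouse sequences in the same table, 6.39% to 26.6% hold the pair at bases 10 to 12, depending on the pair. The exception was miR-155, whose named pair CG occurs in neither its mature mouse sequence nor the reverse complement. For miR-155 the number of replaced bases may therefore not be the number of mismatches to the mouse RNA. On the reverse complement strand the pair occurs in 10 of the 14. The probes' own sequences and the human mature sequences were not used here, so these positions describe the mouse miRNAs only.

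The matched miRNAs come from several parts of the genome. Mir17 lies at chr14:115043684-115043706 on the plus strand and Mir21a at chr11:86584120-86584141 on the minus strand. Mir221 and Mir222 are neighbours on the minus strand of the X chromosome, at chrX:19146307-19146329 and chrX:19146901-19146923. Mir155 lies at chr16:84714143-84714165 and Mir34a at chr4:150068473-150068494, both on the plus strand. The mature miR-181a and miR-16 are each made from a pair of loci, so their probes cannot tell those loci apart.

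Levels are the deposited linear relative intensities, on a scale that the authors' table does not define. The 38 probes named Randomer gave the background: their 95th percentile lay between 0.377 and 0.463 on the 6 arrays. On all 6 arrays 38.0% of the 2990 rows, 36.7% of the human-named rows and 51.6% of the mismatch probes (48 of 93) were above it. A further 23 mismatch probes were above it on no array, and none reached the scanner limit on any. As a check of the tissue, 6 of 8 blood miRNAs were above background on every array and 1 of 10 miRNAs of other tissues was. Their summed levels were 30.0 to 51.3 in cKO and 21.8 to 22.9 in Ctrl for blood, and 3.71 to 4.09 and 3.73 to 4.05 for the other tissues. The blood sum is mostly 1 row: mmu-miR-223 averaged 21.8, while the median of the blood row means was 1.52. In bulk cells, fewer cells of a type and less RNA per cell cannot be told apart.

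Each mismatch probe was divided by the perfect-match human probe of its name on the same array, and a share is the geometric mean over arrays. The perfect match was above background on all 6 arrays for 9 targets: miR-155, miR-16, miR-17, miR-181a, miR-21, miR-221, miR-222, miR-34a and miR-375. These carry 49 mismatch probes, 20 of class 1 and 29 of class 2. The other 6 targets, miR-155*, miR-17*, miR-181a*, miR-21*, miR-221* and miR-210, carry 44 and were treated apart. A star is read as the minor arm of the hairpin. Just inside the line were miR-222, whose match read 0.424 on its lowest array, and miR-21, at 0.527. Just outside was miR-210, above background on 5 of 6 arrays, with 0.357 on the remaining one. The mouse-named probe of the same miRNA read close to the human match for several targets: it read 101% of the human probe for miR-155, 99.9% for miR-16, 108% for miR-17 and 109% for miR-181a. It read 118% for miR-222, 81.1% for miR-221 and 77.3% for miR-21. It was farther off for miR-210, at 51.3% and above background on 1 of 6 arrays, for miR-34a, where the mouse probe read 37.6% and was above background on 1 of 6 arrays, and for miR-375, where it read 459%.

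The mismatch probes of miR-21, a survival-promoting miRNA that is abundant in many cells, had the lowest shares among the 9 targets over all 6 arrays. In Ctrl alone its class 1 share was 69.7%, above miR-221 (54.5%), miR-181a (60.0%) and miR-155 (67.2%). Its perfect match read 1.45, 2.42 and 1.63 in the 3 cKO mice and 0.527, 0.645 and 0.540 in the 3 Ctrl mice. The class 1 probe MM1G/A read 0.388, 0.364 and 0.332 in cKO and 0.240, 0.338 and 0.336 in Ctrl. The match was high in all cKO mice, with no overlap between groups, whereas MM1G/A stayed near the background level in both. That probe had the lowest class 1 share of this target. The class 1 probe MM1G/T was above background on all 6 arrays. It read 0.725, 0.837 and 0.493 in cKO and 0.442, 0.517 and 0.475 in Ctrl, with overlap. The class 1 probes of miR-21 averaged 43.6% of the match (log2 -1.20 ± 0.77, SD, n = 6 arrays). The class 2 probes averaged 33.0% (-1.60 ± 0.91). All 6 probes were below the match on every array, from 28.3% for GA to CC up to 56.1% for G to T. The large spread over arrays follows the 2 groups and is taken up with the genotype below.

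For miR-221, a repressor of Kit in progenitors, class 1 retained less signal than class 2. The match read 3.21, 4.80 and 5.30 in cKO and 1.74, 2.28 and 2.23 in Ctrl. The class 1 probes averaged 53.1% of it (log2 -0.91 ± 0.16, n = 6) and the class 2 probes 75.6% (-0.40 ± 0.15). All 4 probes were under the match, with C to T lowest at 50.5% and CT to GC highest at 78.6%. Its cluster neighbour miR-222, which has the same seed, stood at 91.5% in class 1 and 78.4% in class 2. In class 1 it was above miR-221 on all 6 arrays, and in class 2 on only 3 of 6. The 12 probes of miR-222 ran from 59.7% for GG to CC to 96.7% for G to C.

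The 5 mismatch probes of miR-181a, a miRNA of lymphoid development, gave nearly equal shares. Its match read 2.02, 2.51 and 2.87 in cKO and 1.52, 1.40 and 1.24 in Ctrl. The probes stood at 63.6% (G to A), 62.4% (G to C), 65.1% (G to T), 67.2% (GC to AG) and 64.6% (GC to TG) of that. Of the 10 pairs these 5 probes form, 0 kept a fixed order on all 6 arrays, so neither the base put in nor a second replaced base separated them beyond the spread between arrays. The 6 probes of miR-155, a miRNA of activated lymphoid and myeloid cells, were far more unlike: 13 of their 15 pairs kept 1 order on all 6 arrays. They ran from 44.4% for G to A to 97.7% for CG to TT. Class 1 averaged 60.4% (log2 -0.73 ± 0.22) and class 2 81.0% (-0.30 ± 0.11).

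For the growth-promoting miR-17 and the cell-cycle repressor miR-16, the probes with 1 replaced base read close to the match or above it. The miR-17 match read 5.54, 9.28 and 7.98 in cKO and 2.96, 3.08 and 2.73 in Ctrl. Its probe MM1C/G, the only class 1 probe of this target, read 7.08, 10.6 and 8.83 in cKO and 3.36, 3.42 and 3.01 in Ctrl. On each of the 6 arrays the mismatched probe was therefore the brighter, at 110% to 128% of the match. The class 2 probes of miR-17 were unlike each other, with AC to CG at 61.7% and AC to GG at 113%. For miR-16 the class 1 probes stood at 106% (G to A), 113% (G to C) and 94.9% (G to T). Its class 2 probes stood at 60.7% (GT to CC) and 97.2% (GT to TC). All cKO and Ctrl shares of miR-16 overlapped.

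The matches of miR-34a, which p53 induces, and miR-375, best known from pancreatic islets, were dimmer, and some of their mismatch probes were brighter than the match. The miR-34a match read 1.04, 1.17 and 1.00 in cKO and 1.02, 0.845 and 0.971 in Ctrl. Its probe MM2CT/GC read 3.55, 4.44 and 1.99 in cKO and 1.74, 1.57 and 1.76 in Ctrl, or 230% of the match. That was the highest share among the 49, and every array had it above the match. The other 3 miR-34a probes stood at 118% (C to G), 60.4% (C to T) and 91.7% (CT to TC), and all 6 pairs of its probes kept 1 order on all arrays. For miR-375 the class 1 probe C to G stood at 119%. Its 3 class 2 probes stood at 141% (CG to GA), 132% (CG to GC) and 178% (CG to GT), each above the match on every array. The mouse-named probe was far from the human match for these 2 targets, as given above, so the match itself is an uncertain divisor for them.

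Over the 9 targets above background, a second replaced base gave no common loss of signal. The mean share was 77.2% in class 1 (log2 -0.37 ± 0.12, SD over 6 arrays, each target weighted equally) and 80.7% in class 2 (-0.31 ± 0.11). On single arrays these ran from 69.1% to 85.3% and from 72.4% to 88.4%. The difference, class 2 minus class 1, was 0.064 on the log2 scale with an SD of 0.055 over arrays, against an SD of 0.47 over targets. Leaving out the probe miR-34aMM2CT/GC turned it to -0.010, and taking out miR-21 moved it to 0.12. The targets themselves went both ways.

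For miR-16 the class 2 share was lower than the class 1 share on all 6 arrays, by a log2 difference of -0.44 ± 0.05 (SD, exact sign-flip test over arrays, two-sided p = 0.03125). The same held for miR-17 at -0.45 ± 0.18 and for miR-21 at -0.40 ± 0.23, each with exact p = 0.03125. It was the reverse on all 6 arrays for miR-155 (0.42 ± 0.12), miR-221 (0.51 ± 0.09) and miR-34a (0.78 ± 0.28), again with exact p = 0.03125. For miR-155 the named pair is absent from the mouse miRNA, so its classes may not count mismatches to the RNA measured. The remaining 3 targets were mixed over arrays. They were miR-222 with -0.22 ± 0.19 (5 of 6 arrays, exact p = 0.0625), miR-181a with 0.05 ± 0.11 (exact p = 0.3125) and miR-375 with 0.33 ± 0.45 (exact p = 0.125). So, with these probes, 3 targets had the lower share in class 2, 3 had it in class 1, and 3 had no fixed order. These p-values are unadjusted over the 9 targets, 0.03125 is the smallest that 6 arrays allow, and the arrays of both groups enter together. They measure how repeatably the same probes read over arrays, not the spread between probes of a class. For miR-17, class 1 is 1 probe and the class 2 probes stood at 61.7% and 113%. An effect of the number of replaced bases apart from the particular probes was not tested.

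Counted by probe, 23 of the 49 were below their match on all 6 arrays, 10 of 20 in class 1 and 13 of 29 in class 2. A further 7 were above it on all 6 arrays and 19 were mixed. The median probe stood at 73.6% in class 1 and 78.0% in class 2. To set these shares against probes with no declared mismatch, the mouse-named row of each miRNA was divided by the human-named row of the same name. Over 163 such pairs whose human row was above background, the central 90% of shares ran from 19.3% to 235% with a median of 81.0%, and 49 of the 49 mismatch probes fell inside that range. Over the 115 pairs with both rows above background it ran from 35.4% to 362% with a median of 99.6%, and 46 of 49 fell inside, with 3 below it. Some of those pairs differ in sequence between the species, and their share of the spread was not tested.

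The base that was put in had no order shared by all targets. Where G was replaced in the 5 targets above background with such probes, A stood below T for miR-155, miR-21, miR-181a and miR-222, though not on every array for the last 2 of these, and above T for miR-16. In miR-155 the shares were 44.4% with A and 82.1% with T. The miR-21 probes stood at 32.7% with A, 45.2% with C and 56.1% with T, a spread that miR-181a lacked. For miR-222 the order was 84.2% with A, 96.7% with C and 94.1% with T, and for miR-16 C was also highest and T lowest. The 9 class 2 probes of miR-222 form a full grid of replacements of GG. Averaged by the second base put in, they stood at 80.9% for A, 68.5% for C and 87.1% for T, and C was lowest on all 6 arrays. By the first base they stood at 78.5% for A, 74.4% for C and 82.5% for T, and C was again lowest on all 6. The miR-17* target, named here after its values were seen, has a grid of GG replacements too, but there a first base C was highest on all 6 arrays and T lowest, at levels near background.

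For the 6 targets not above background the divisor was above background on no array, except for miR-210, so a share there compares a probe with background rather than with a measured match. The miR-210 match read 0.847, 1.10 and 0.961 in cKO and 0.357, 0.888 and 0.517 in Ctrl, so its shares compare with a measured match on 5 of 6 arrays. Class 1 averaged 121% (log2 0.28) and class 2 109% (0.12). By target and class they ran from 84.1%, for class 2 of miR-210, to 167%, for class 1 of miR-181a*. Of the 44 probes, 4 were below the match on all arrays, 15 above it and 25 mixed, and 9 were above background on all 6 arrays while 20 were on none. The unclassed miR-155* probe stood at 187%, next to 187% for the class 2 probe TT to AC and 101% for TT to AA. For miR-210, a miRNA induced by low oxygen, class 2 was below class 1 on all 6 arrays (log2 -0.46).

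A single probe stood out in this set. The miR-181a* match read 0.379, 0.353 and 0.345 in cKO and 0.378, 0.378 and 0.314 in Ctrl, and was above background on no array. Its probe MM1G/C read 2.87, 2.25 and 1.93 in cKO and 1.20, 1.76 and 1.02 in Ctrl, or 485% of the match. Replacing the same G by A or T gave 82.6% and 116%. The cKO levels of MM1G/C all lay above the Ctrl levels, while those of the match overlapped. Leaving this probe out moved the class 1 mean of the 6 targets from 0.28 to 0.15 on the log2 scale.

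The comparison of cKO with Ctrl asked whether mismatched probes followed their targets when Raptor was to be deleted. With limma fitted to all 2990 rows, 11 mismatch probes rose in cKO and 0 fell (Benjamini-Hochberg adjusted p under 0.05), beside 3.78% of all rows that rose and 0.201% that fell. At an unadjusted p under 0.05, 34 of the 93 mismatch probes were higher and 0 lower. The share of all rows at that threshold is not given here, so this count has no comparison. All 11 belong to the 49 probes of targets above background, and they were 6 of the 35 in class 1 and 5 of the 57 in class 2. Among rows above background on 6 arrays, 7.92% rose. The median log2 difference over the 93 probes was 0.20, against 0.026 over all rows.

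The probes that rose copy miR-17, miR-181a, miR-221 and miR-222. The largest change was in miR-17MM1C/G, whose 6 values are given above: it was 2.67-fold higher in cKO (log2 1.42 ± 0.27, SE, limma adjusted p = 0.0144), and the groups did not overlap. The other miR-17 probes AC to CG and AC to GG rose by log2 1.16 and 1.14 (adjusted p = 0.0317 and 0.0346). The miR-17 match rose by 1.35 (adjusted p = 0.0235) and the mouse-named miR-17 probe by 1.24 (adjusted p = 0.0369). For miR-181a, MM1G/A read 1.46, 1.95 and 1.80 in cKO and 0.736, 0.916 and 0.726 in Ctrl, and rose by log2 1.13 ± 0.21 (limma adjusted p = 0.0129). Every cKO mouse was above every Ctrl mouse for that probe. A further 3 of the 5 miR-181a probes rose, by 0.94 to 1.03, while the match differed by 0.82 and did not pass (adjusted p = 0.104).

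For miR-221 and miR-222 some mismatched probes passed where the human matches did not. The miR-221 probe C to G rose by log2 1.11 ± 0.24 (limma adjusted p = 0.0267), and its other 3 probes did not pass. The miR-221 match differed by 1.07 (adjusted p = 0.071), while the mouse-named probe rose by 1.14 (adjusted p = 0.0337). For miR-222, G to C rose by 1.03 ± 0.22, GG to TT by 0.84 ± 0.19 and G to A by 0.89 ± 0.21 (limma adjusted p = 0.0235, 0.0335 and 0.0419), while its match differed by 0.76 (adjusted p = 0.193). For these 4 probes the shares of the match overlapped between cKO and Ctrl.

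Of the other targets above background, the 6 miR-155 probes had every cKO level above every Ctrl level, with log2 differences of 0.59 to 0.79, and 0 of 6 passed. Non-overlapping levels of this direction were found in 32 of the 93 mismatch probes, beside 13.5% of all rows. The probes of miR-16, miR-34a and miR-375 did not pass, nor did their matches. The count of 11 depended on single mice: it was 12 without cKO mouse 1, 3 without cKO mouse 2, 21 without cKO mouse 3, 0 without Ctrl mouse 1, 2 without Ctrl mouse 2 and 0 without Ctrl mouse 3. In the same order, 121, 53, 215, 34, 55 and 43 of all 2990 rows were called higher, beside 113 with every mouse. The count of mismatch probes also depended on the scaling. With quantile normalization 0 passed, beside 27 of all 2990 rows called higher and 7 lower. Scaling to the small nucleolar RNA and GAPDH rows called 1 probe higher (miR-17MM1C/G) and 26 lower. Of those 26, 22 copy targets not above background. That scaling called 48 of all 2990 rows higher and 1217 lower, with the median of all rows at -0.55. The 11 probes, picked as higher in cKO, kept that sign under every alternative run. Much of this was fixed in advance. Row filters, a block by replicate number and the intensity trend setting leave a probe's difference unchanged. Where the groups do not overlap, leaving out 1 mouse cannot turn the sign.

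The miR-21 probes did not move with their match. The match was 3.14-fold higher in cKO (log2 1.65 ± 0.23, limma adjusted p = 0.00355) and the mouse-named probe 3.12-fold (adjusted p = 0.00142). The 6 mismatched probes were 1.02-fold to 1.40-fold higher, and 0 of 6 passed (lowest adjusted p = 0.22), all 6 with a smaller change than the match. The class 1 share of miR-21 was 35.1%, 22.7% and 25.4% in the cKO mice and 67.0%, 67.8% and 74.7% in the Ctrl mice. The class 2 share was 22.3%, 13.9% and 22.1% in cKO and 59.8%, 52.5% and 59.6% in Ctrl. Both classes had every cKO share below every Ctrl share, by log2 -1.36 and -1.59 (exact permutation p = 0.1 each, the smallest that 3 against 3 allows). In Ctrl the match itself was close to background, and 3 of the 6 mismatched probes were above background on no array. With the Randomer mean subtracted, the class 1 share was 12.7% in cKO and 41.3% in Ctrl, again without overlap, on the 2 of 3 probes that kept a value. No class 2 probe of miR-21 kept one.

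For the 9 targets above background the genotype difference of the class means rested on miR-21. Over them the class 1 share was 72.2% in cKO and 82.6% in Ctrl (log2 -0.19), and the class 2 share was 75.8% and 85.8% (-0.18), with no overlap between groups in either. Without miR-21, an alternative chosen after its values were seen, the shares were 81.5% and 84.4% in class 1 and 90.2% and 90.3% in class 2, and the groups overlapped. For the 6 other targets, which do not include miR-21, the class 2 share was 104% in cKO and 115% in Ctrl (log2 -0.14) with no overlap, and the class 1 shares overlapped. Probe by probe, the shares of cKO and Ctrl did not overlap for 12 of the 49 probes of targets above background (24.5%, 6 of them miR-21), beside 17.4% of mouse to human row pairs with both rows above background. The 2 filters differ, because for the 49 only the match had to be above background. Of the 49 probes themselves, 39 were above it on all 6 arrays and 3 on none. The shares did not overlap for 4 of the 44 probes of the other targets (9.09%). Over all 93 it was 17.2%, beside 15.4% of all such pairs.

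Among the other targets the class shares that did not overlap went in both directions. Ctrl was higher for class 1 of miR-155 and class 2 of miR-210. In miR-155 the class 1 shares were 58.7%, 54.2% and 50.3% in cKO and 64.4%, 60.2% and 78.3% in Ctrl. The cKO group was higher for class 1 of miR-181a, with 65.9%, 69.8% and 67.2% against 55.8%, 64% and 60.4%. It was also higher for class 2 of miR-375 and class 1 of miR-181a*. With 3 arrays in each group the exact permutation p of each was 0.1 and could not be lower. These class shares, together with both of miR-21 given above, were picked out of both classes of all 15 targets. Among mouse to human row pairs, which are single rows and not class means, 15.4% did not overlap.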

How the data were processed

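The deposited values are linear intensities for 2990 rows on each of 6 arrays, as the table's header and values show. Total RNA (5 µg per mouse) was reverse transcribed from biotinylated random octamers and read with streptavidin-Alexa647 on an Axon scanner, per the labels' protocols. How the authors turned images into these intensities, with any background correction or normalization, is not given in the sources used here. Multiplied by 1 constant per array (829 to 987.5), at least 99.97% of the values are multiples of 0.25 (tolerance 0.01), with none below 178.5, so no background subtraction is visible.

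The log2 of the deposited intensities was used with no floor and no further scaling. An array's scaling cancels in the shares. Levels were tested with limma 3.58.1 in R 4.3.3 (two-sided, lmFit and eBayes with an intensity trend, p-values adjusted over all 2990 rows by Benjamini-Hochberg), which was tested on simulated data. Shares used Python 3.11.15, pandas 2.3.3 and numpy 2.4.6, with exact tests over arrays for single targets. Class means are descriptions with no p-value. Each array is 1 mouse per the labels, and 3 per group limit the precision.

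By rule, the text names every target above background, every mismatch probe past the genotype test, the targets with the highest and lowest class mean among the rest, and the unclassed probe. The members and lists were chosen with earlier results of these data known. Alternatives covered scaling, filters, the match, the background line, summary and leave-one-out.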

Additional observations from a re-analysis of the deposited data

How the results depend on the processing

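The count of 11 mismatch probes past the genotype test was 0 after quantile normalization (limma, with 19 higher and 3 lower at an unadjusted p under 0.05). It was 27 after scaling to small nucleolar RNA and GAPDH rows (26 of them lower). A floor at the Randomer 95th percentile gave 23, and 17 passed without the intensity trend. The other filters and median centring gave 9 to 15. Over all 2990 rows, quantile normalization called 27 higher and 7 lower, and the small nucleolar RNA and GAPDH scaling 48 and 1217. The floor called 179 higher and 27 lower, the fit without the trend 156 and 5, and median centring 108 and 6. The filters called 145 of 1605 rows higher and 11 lower, and 114 of 2913 higher and 6 lower. Leaving out 1 mouse gave 0 to 21, beside 34 to 215 of all 2990 rows called higher. At the 0 counts without Ctrl mouse 1 and Ctrl mouse 3, 26 and 29 were higher and 1 and 2 lower at an unadjusted p under 0.05. For none of these unadjusted counts is the share of all rows given here. With the replicate number as a block the count of probes past the test was 20, beside 173 of all 2990 rows called higher and 18 lower. The numbers are not shown to pair the mice: deviations of same-numbered mice correlated at 0.12, 0.073 and 0.17, with number 2 correlating better with Ctrl mouse 1. Under the block the genotype differences of the class shares were -0.19 and -0.18 by construction. Each number occurs once in each group, so the block cannot change them.

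The other values are log2 differences. For targets above background, subtracting the Randomer mean put class 1 at -0.58, class 2 minus class 1 at 0.18 and the class 2 genotype difference at 0.066, with 1 class 1 probe and the 3 class 2 probes of miR-21 lost (19 of 20 class 1 and 26 of 29 class 2 probes left). A background line at the 99th percentile left 6 targets, with class 2 minus class 1 at 0.14 and genotype differences of -0.048 and -0.025. Medians in place of means gave genotype differences of 0.042 and -0.031. The remaining alternatives were chosen after seeing the data. Without miR-21, class 2 stood at -0.15, class 2 minus class 1 at 0.12 and the genotype differences at -0.049 and -0.0023. Without miR-34aMM2CT/GC, class 2 minus class 1 was -0.010 and the class 2 genotype difference -0.24. For targets not above background, class 1 and class 2 were 0.48 and 0.34 over the mouse probe, which only 3 of the 6 targets have, and 0.067 and -0.069 with the 99th percentile line. Class 1 was 0.18 with medians and 0.15 without miR-181a*MM1G/C, and class 2 minus class 1 was 0.013 with medians. Leaving out each mouse kept class 1 and class 2 of targets above background between -0.40 and -0.34 and between -0.34 and -0.28. Subtraction left no value for targets not above background, and averaging rows of one name was not run because no name is repeated. The cause of these shifts was not tested.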
